A study of Mus musculus with 82 samples.

Results

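Expression of 5 genes of the γ-aminobutyric acid (GABA) cycle was followed through the suprachiasmatic nucleus (SCN) of the mouse: Gad1, Gad2, Slc32a1, Slc6a11 and Abat. They were chosen by symbol, and all 5 were found among the 27515 genes counted. The tissue came from C57BL/6 mice aged 8 weeks and was stained with cresyl violet. Hexagons of at most 40 µm radius, laid out as a grid, were captured by laser, and each gave 1 Smart-seq2 library. The 82 hexagons carry medial-lateral (ML, 1100 to 1517), dorsal-ventral (DV, 301 to 917) and anterior-posterior (AP, 47 to 431) coordinates and lie in 9 sections 48 AP units apart.

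Sections 1 to 9, counted from the lowest AP coordinate, held 4, 6, 12, 14, 12, 14, 13, 6 and 1 hexagons. All carry the same strain, age and stain. As far as the labels say, the groups compared differ in position and in library set. The 8 sets, read from the first letter of each library's label, followed section closely. The labels give no unit for the coordinates, name no end of an axis, and name no animal, sex or time of day. For orientation, Vip, a peptide gene of SCN core neurons, rose with the DV coordinate (1.53 log2 per 100 units, SE 0.168, edgeR adjusted p = 1.514e-09). Several hexagons may come from one animal, and tests that treat them as independent then give p-values that are too small.

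Library totals ran between 11905 and 2843366 counts (median 542267.5), and 5 libraries had less than 1/3 of the median. Among the marker lists, the summed level of 11 pan-neuronal genes averaged 6079 CPM (counts scaled to library size with TMM factors) and that of 12 astrocyte genes averaged 5516 CPM. Of the 3 vesicular glutamate transporter genes, Slc17a7 had no count in any of the 82 hexagons, Slc17a8 had one in 6 hexagons and Slc17a6 in 29. Each hexagon holds several cells, so fewer cells of a type and less RNA per cell cannot be told apart.

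Nearly all neurons of the SCN release GABA. Glutamate is converted to GABA by glutamate decarboxylase, which exists as the product of Gad1, spread through the neuron, and that of Gad2, held mostly at nerve endings. Slc32a1 encodes the vesicular transporter that packs GABA into synaptic vesicles. Slc6a11 encodes a plasma membrane transporter, found in brain mainly on astrocytes, that takes GABA back up. Abat encodes GABA transaminase, the mitochondrial enzyme that starts GABA breakdown in neurons and astrocytes.

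In GRCm38, with the GENCODE M21 annotation, 3 of the genes lie on chromosome 2, all on the plus strand. Gad1 (ENSMUSG00000070880.10) spans chr2:70553072-70602014, Gad2 (ENSMUSG00000026787.3) spans chr2:22622205-22693874 and Slc32a1 (ENSMUSG00000037771.11) spans chr2:158610767-158615748. Slc6a11 (ENSMUSG00000030307.8) spans chr6:114131241-114249952 and Abat (ENSMUSG00000057880.12) spans chr16:8513429-8621568. Exons of Slc32a1 overlap those of the antisense gene Gm14205. Whether the counting used strand is not given in the sources used here, so reads of this pair cannot be told apart.

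The synthesis genes were high throughout the nucleus and the vesicular transporter was the lowest of the 5. Per length, as deposited RPKM (counts scaled to gene length and library total), the means over 82 hexagons were 139 ± 37.0 for Gad1, 121 ± 49.6 for Gad2, 98.7 ± 23.0 for Abat, 64.4 ± 24.3 for Slc6a11 and 15.5 ± 7.60 for Slc32a1 (SD). Both decarboxylase genes stood above Slc32a1 in 82 of 82 hexagons. Gad2 was below Gad1 in 53 hexagons and above it in 29, and Abat was below Gad1 in 72.

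The genes also differed in how much they varied from hexagon to hexagon. Gad1 lay between 578 and 1965 CPM (median 1034) and Abat between 201 and 1282 CPM (median 778). Without the 5 libraries of less than 1/3 of the median total, the lowest Abat value was 385 CPM. Gad2 lay between 231 and 1570 CPM (median 653). After section and both coordinates were fitted, edgeR's biological coefficient of variation was 0.377 for Gad2, against a trend of 0.329 for genes of its level. That excess over the trend put Gad2 at the percentile 81.6 of all genes tested. Gad1 (0.246, trend 0.324) and Abat (0.246, trend 0.328) stood at the percentiles 12.3 and 11. Slc32a1 (0.423, trend 0.662) stood at the percentile 3.3 and Slc6a11 (0.352, trend 0.345) at 61.5. Once section and position were fitted, Gad2 was thus the more uneven of the synthesis genes. Slc32a1, Abat and Gad1 were then among the steadier genes of their level. Without that fit, SD over mean of CPM across 82 hexagons was largest for Slc32a1 (48.5%), followed by Gad2 (42.7%).

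Slc6a11 ranged between 0 and 636 CPM (median 312) and Slc32a1 between 0 and 97.1 CPM (median 46.0). Both zeros came from 1 library, replicate 4 of section 4, with a total of 11905 counts. There a count of 0 allows a level of up to 100.5 CPM (3 counts, counting error only), so the zeros do not show absence. Slc32a1 had a median of 22.5 counts per library, which limits the precision of any single hexagon. Gad1 and Gad2 had medians of 536 and 324 counts.

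**Figure D1:**
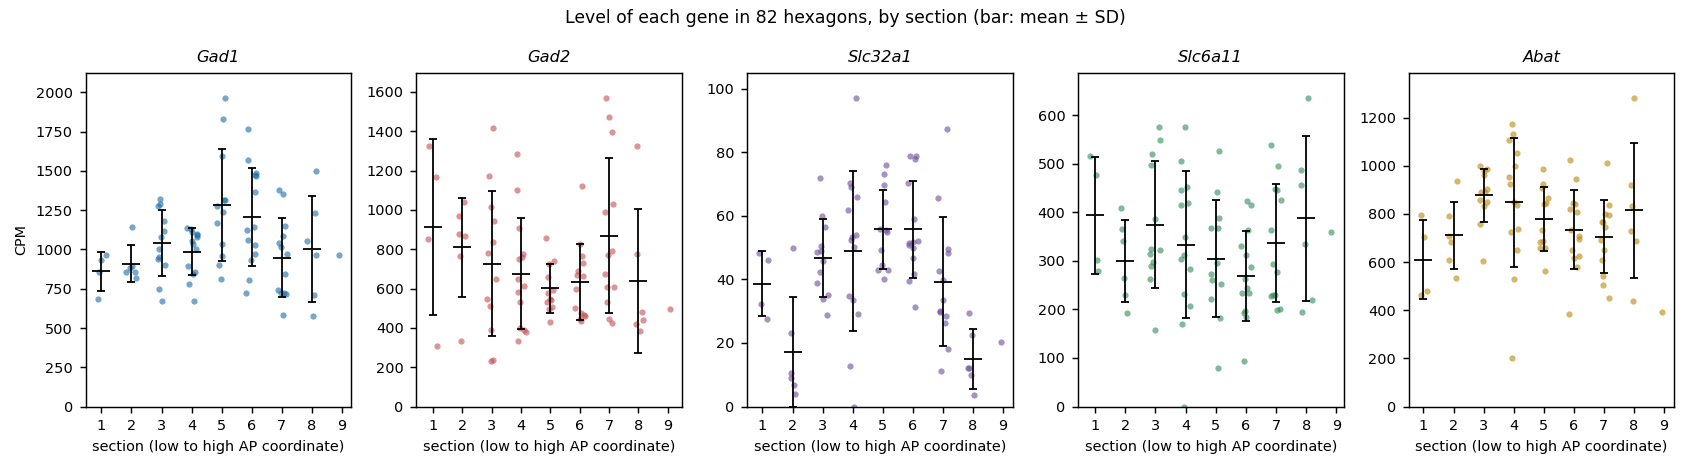
TMM-scaled CPM of each gene (y axis) in each hexagon (points), by section in order of AP coordinate (x axis), with the mean and SD per section as black bars; section 9 has 1 hexagon and no bar. Slc32a1 is low in most hexagons of sections 2 and 8, while the ranges of the other 4 genes overlap between all of sections 1 to 8.

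Among the 5 genes, Slc32a1 was the one that passed the test for a difference between sections. Its means were 38.6 ± 10.2, 17.2 ± 17.3, 46.8 ± 12.2, 48.9 ± 25.2, 55.8 ± 12.5, 55.8 ± 15.3, 39.3 ± 20.3 and 15.0 ± 9.41 CPM in sections 1 to 8 (SD), and the single hexagon of section 9 had 20.4 CPM. Sections 5 and 6, whose means were nearly equal, ran between 40.0 and 76.0 CPM and between 31.2 and 79.0 CPM. Section 8, the lowest, ran between 3.59 and 29.5 CPM and overlapped neither. Section 2 ran between 3.9 and 49.8 CPM with a median of 9.77, and its highest hexagon reached into the range of section 5. In the order of section means, 6 of 7 neighbouring sections differed by less than the larger of their SDs.

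The difference between sections passed the test for 1 of the 5 genes (Slc32a1, F = 6.01, edgeR quasi-likelihood adjusted p = 0.00129, 81 hexagons of sections 1 to 8). Over all genes tested, 461 of 11440, or 4.03%, passed the same test. The call for Slc32a1 held without any single section, with adjusted p between 0.000968 and 0.0396. Sections 2 and 8 were of middling depth, with median totals of 646918 and 641335 counts against 361046 to 1233320 over the 8 sections. Section 8 had the highest median share of mitochondrial counts (1.785%, against 1.37% to 1.69% in the other 7) and the fewest genes detected (median 11041.5, against 11250.5 to 12031.5), and their part in its low Slc32a1 was not tested. The median pan-neuronal sum was 5617 CPM in section 2, the lowest of the 8, and 6258 CPM in section 8. The median astrocyte sum was 4908 CPM in section 2 and 6718 CPM in section 8.

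Library set, read from the first letter of each library's label, followed section closely: sections 1 and 2 shared one set, section 3 had a set of its own and so did sections 8 and 9. Section and set cannot be told apart for most contrasts. When set entered the fit (an alternative chosen after seeing the data), 4 section contrasts could still be estimated and 0 of 11440 genes passed, with 486 at an unadjusted p under 0.05. Those contrasts set section 1 against 2 and sections 4 to 7 against each other. Section 8 could not be compared with the others there, nor section 2 with sections 5 and 6. In that fit Slc32a1 had an unadjusted p of 0.0676 and an adjusted p of 0.9999 (edgeR). Within the one set that held both, Slc32a1 was 17.2 ± 17.3 CPM in section 2 (n = 6) and 38.6 ± 10.2 CPM in section 1 (n = 4).

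Gad1 was highest in section 5 (1284 ± 358 CPM, n = 12) and section 6 (1209 ± 313 CPM, n = 14) and lowest in section 1 (861 ± 125 CPM, n = 4). The SCN neuron marker sum, of which Vip was the largest part, was also highest in sections 5 and 6, with medians of 4054 and 4414 CPM. In the other 6 its medians were 2123 to 3228 CPM, and its part in the section means of Gad1 and Slc32a1 was not tested. The difference of Gad1 between sections narrowly missed the threshold (edgeR adjusted p = 0.0612), and it passed with RLE scaling (0.0154), with library size alone (0.0294), with no filter on low counts (0.0206, where 21.7% of all genes passed) and without section 8 (0.0375). Gad2 had means between 913 ± 449 CPM in section 1 and 601 ± 122 CPM in section 5, with an adjusted p of 0.740. On summed counts its ends were section 7 (854 CPM) and section 6 (600.5 CPM). The section means of Abat ran between 611 and 877 CPM, and those of Slc6a11 between 270 and 394 CPM. For Gad1, Gad2, Slc6a11 and Abat, all 7 neighbours in the order of section means differed by less than the larger SD.

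A trend along the AP axis was tested on counts summed per section (8 sums). None of the 5 genes passed (edgeR, 0 at an unadjusted p under 0.05), against 28 of 11440 genes or 0.245%. Of all genes, 16.7% had an unadjusted p under 0.05. The steepest slope was that of Gad1 (0.10 log2 per 100 AP units, SE 0.062, adjusted p = 0.424). Slc32a1 had a slope of -0.0053 (SE 0.218, adjusted p = 0.994).

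**Figure D2:**
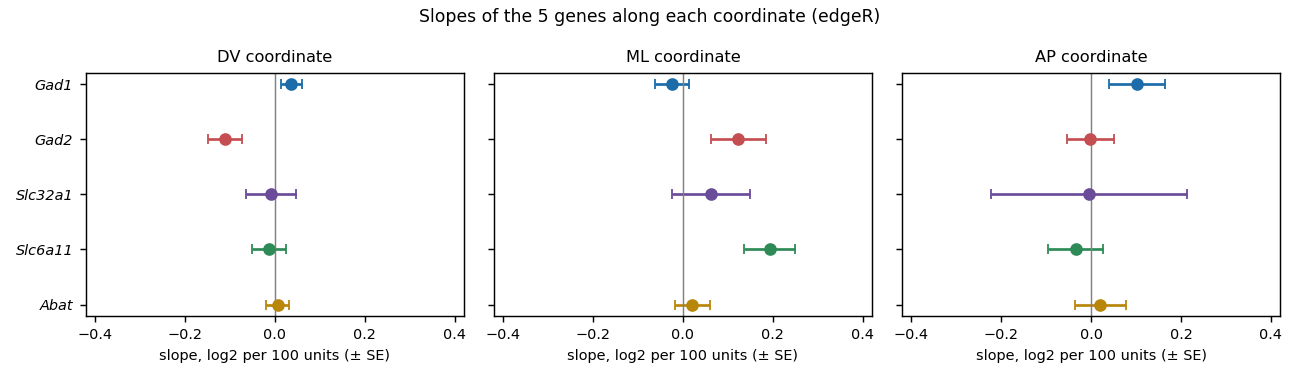
Slope of each gene (rows) along the DV, ML and AP coordinates (panels) in log2 per 100 coordinate units (x axis), points with SE bars from edgeR. Gad2 lies left of 0 on the DV axis (-0.11) and Slc6a11 right of 0 on the ML axis (0.19); neither passed the adjusted threshold.

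Within sections, none of the 5 genes passed along the DV axis. The fitted slopes of the decarboxylase genes had opposite signs, though that of Gad1 was not told apart from 0. Gad2 had a DV slope of -0.11 log2 per 100 units (SE 0.038, edgeR unadjusted p = 0.00451, adjusted p = 0.213). Gad1 had a slope of 0.04 (SE 0.024, edgeR unadjusted p = 0.118, adjusted p = 0.772), and taken section by section its slope was negative in 2 of 8. Abat (0.007), Slc32a1 (-0.008) and Slc6a11 (-0.013) were close to level. None of the 5 was called with edgeR or with DESeq2 (1 at an unadjusted p under 0.05 with edgeR), against 93 of 11469 genes or 0.811% with edgeR and 162 or 1.41% with DESeq2. Of all genes, 8.43% had an unadjusted p under 0.05 with edgeR. The median slope was -0.008 for the 5 genes and 0.0027 for all genes tested.

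In CPM, Gad2 lay between 231 and 1327 (median 647) in the 27 hexagons with the highest DV coordinates, 743 to 917, and between 335 and 1474 (median 738) in the 27 with the lowest, 301 to 578. Gad1 lay between 585 and 1965 (median 1134) in the highest and between 578 and 1597 (median 1032) in the lowest. The ranges overlapped almost entirely for both genes. In the middle 28 hexagons, at 579 to 739, the medians were 566 CPM for Gad2 and 962 CPM for Gad1, below those at either end. The sum of 8 SCN neuron markers, Vip among them, was 6317 ± 4974 CPM in the highest 27 and 2707 ± 1094 CPM in the lowest 27, and that of oligodendrocyte markers was 4423 ± 5709 and 2096 ± 2039 CPM. Vip alone averaged 1758 CPM over the 82 hexagons, out of 4010 CPM for the SCN neuron sum. It was the 1 of the 8 markers called along DV with edgeR. The sum may thus follow Vip more than the number of SCN neurons. The part of these markers in the slopes was not tested. With the pan-neuronal and astrocyte sums as covariates the Gad2 slope was -0.10 (edgeR adjusted p = 0.270).

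Taken section by section, the DV slope of Gad2 was -0.83, -0.36, -0.66, -0.13, -0.01, -0.002, -0.20 and 0.13 log2 per 100 units in sections 1 to 8, negative in 7 of 8. The slope of section 1 rests on 4 hexagons at DV coordinates 680 to 755, and those of sections 2 and 8 on 6 hexagons each. Slopes from so few hexagons are loosely determined. In section 3, at DV coordinates 451, 498, 518, 578, 619, 647, 671, 697, 748, 790, 827 and 865, Gad2 had 1414.5, 1013, 783, 941, 838, 389, 1172, 511, 647, 549, 237 and 231 CPM. The hexagons at 827 and 865 were the lowest of all 82. In section 8 the hexagon with the highest DV coordinate, 865, had 1327 CPM, while the other 5 had 387 to 777 CPM. The test of a difference in slope between sections gave p = 0.000933 for Gad2 and an adjusted p of 0.219 (edgeR), and it passed with no filter on low counts (0.0442, with 1.67% of all genes). It called 0 of the 5 genes (1 at an unadjusted p under 0.05) and 11 of 11440 genes or 0.0962%. Of all genes, 6.22% had an unadjusted p under 0.05 in it.

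Leaving out a section moved the Gad2 slope between -0.07 (without section 3, adjusted p = 0.724) and -0.14. Without section 8 the slope was -0.14 (SE 0.037) and passed (edgeR adjusted p = 0.0234).

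Set against Gad1 in the same library, Gad2 had a falling mean slope along the DV coordinate, called when hexagons were permuted within sections. That test treats the hexagons of a section as exchangeable, and other gene pairs were not run as a background. The log2 ratio of Gad2 to Gad1 had a DV slope of -0.16 per 100 units (SE 0.038, permutation test within sections, two-sided, p = 5e-05, adjusted p = 0.0007 over 14 ratio slopes). The ratio of RPKM had a median of 0.650 (0.287 to 1.80) in the 27 hexagons with the highest DV coordinates and of 0.925 (0.470 to 1.67) in the 27 with the lowest. These ranges overlapped. In the middle 28 the median was 0.830 (0.444 to 2.51), and the mean, 0.989, was close to the 0.993 of the lowest 27. Gad2 was above Gad1 in 7 of the highest 27, 11 of the middle 28 and 11 of the lowest 27. The DV slope of the log2 ratio passed without any single section (-0.12 to -0.18, permutation adjusted p 0.00014 to 0.0269). It was -0.16 (adjusted p = 0.00084) within strata of section and library set, an alternative chosen after seeing the data. A ratio within a library does not depend on its scaling, and it does not say which of the genes changed.

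**Figure D3:**
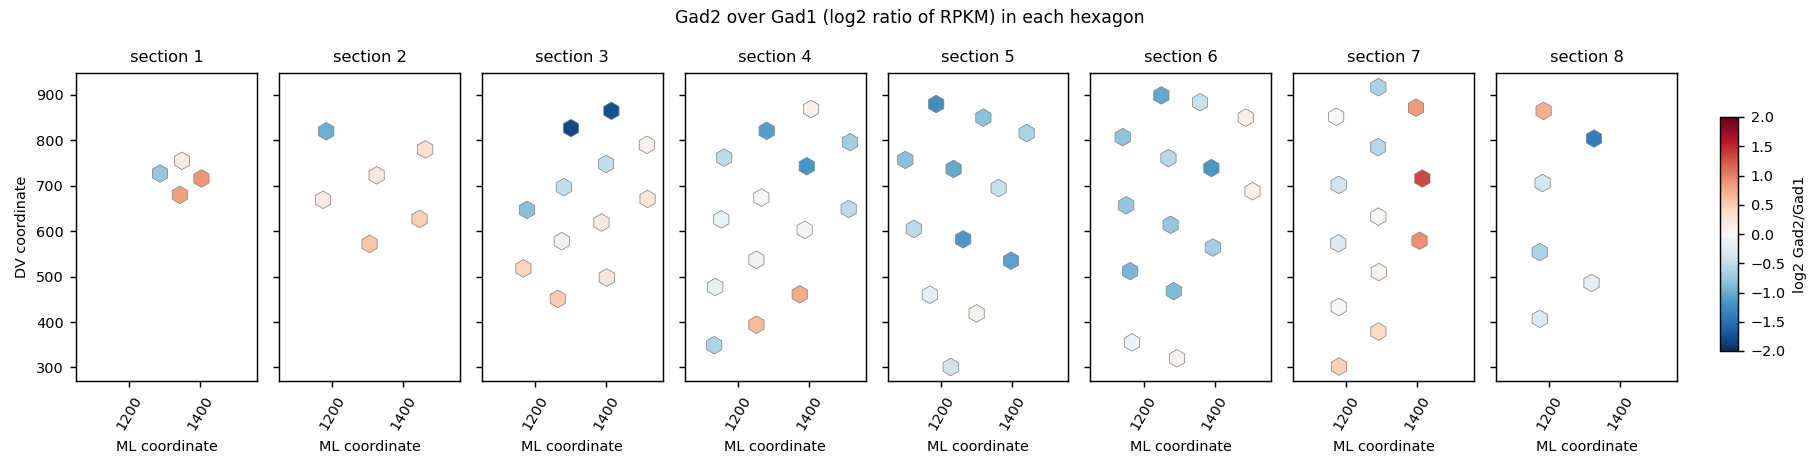
Position of each hexagon by ML (x axis) and DV (y axis) coordinate in sections 1 to 8 (panels), coloured by log2 of the Gad2 to Gad1 ratio of RPKM (red: Gad2 higher; blue: Gad1 higher). The darkest blue hexagons lie at high DV coordinates of section 3, with ratios of 0.287 and 0.30; the single hexagon of section 9 is not drawn.

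The comparison with neurons as a whole gave a similar slope for Gad2 and none called for Gad1. Gad2 over the pan-neuronal sum had a DV slope of -0.12 (SE 0.039, permutation p = 0.00131, adjusted p = 0.00917). That call was lost without section 3 (-0.08, adjusted p = 0.124), section 4 (0.0566) or section 7 (0.0654). Gad1 over the pan-neuronal sum had a slope of 0.04 (SE 0.027, permutation adjusted p = 0.253), and 0.07 (adjusted p = 0.0334) without the 5 shallow libraries. Slc32a1 over Gad1 (-0.01, SE 0.065) and Abat over Gad1 (-0.02, SE 0.034) had no called DV slope, with adjusted permutation p of 0.876 and 0.682.

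Along the ML axis the GABA transporter of astrocytes leaned most. Slc6a11 lay between 198 and 575 CPM (median 367) in the 27 hexagons with the highest ML coordinates, 1348 to 1517, and between 0 and 526 CPM (median 233) in the 27 with the lowest, 1100 to 1228. These ranges overlapped, and the slope was 0.19 log2 per 100 units (SE 0.058, edgeR unadjusted p = 0.00119, adjusted p = 0.0669). It was positive in 7 of 8 sections, section 5 being the exception at -0.14. With DESeq2 the adjusted p was 0.0182, with no filter on low counts 0.0297 (4.26% of all genes passed there), and without section 5 0.0159. Within sections 4 to 7 library set also changed with the ML coordinate. In section 4, for example, set D lay at 1512 and 1516 and set C at 1406 or lower. ML slopes of any gene can therefore not be fully told apart from set. With set in the edgeR fit, 13 of 11469 genes passed along ML.

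None of the 5 genes passed along the ML axis with edgeR (2 at an unadjusted p under 0.05) and 1 did with DESeq2, against 160 of 11469 genes or 1.4% with edgeR and 386 or 3.37% with DESeq2. Of all genes, 11.6% had an unadjusted p under 0.05 with edgeR. Beside Slc6a11, the second member under 0.05 was Gad2 (0.12, SE 0.061, edgeR adjusted p = 0.411). It had 786 ± 327 CPM in the highest 27 hexagons and 635 ± 266 CPM in the lowest 27. Slc32a1 (0.06), Abat (0.02) and Gad1 (-0.02) had adjusted p of 0.869, 0.908 and 0.885. The slopes along ML differed between sections for 0 of the 5 genes by edgeR (2 at an unadjusted p under 0.05) and for 11 of 11440 genes, 0.0962%. In that test 7.88% of all genes had an unadjusted p under 0.05.

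Marker sums of several cell types stood at different means at the ends of the ML axis, with spreads that overlapped. The astrocyte sum was 6284 ± 1828 CPM in the 27 hexagons with the highest ML coordinates and 5130 ± 1533 CPM in the lowest 27, and 1 of 12 astrocyte markers was called (S100b, 0.27, SE 0.075, edgeR adjusted p = 0.0416). The slopes of all 12 were positive, with a median of 0.13 beside -0.0054 for all genes tested. With edgeR 6 of the 12 had an unadjusted p under 0.05, against 11.6% of all genes. The oligodendrocyte sum was 4038 ± 5510 CPM in the highest 27 and 2227 ± 2160 CPM in the lowest 27, with 0 of 8 markers called (1 at an unadjusted p under 0.05). The SCN neuron sum was 2998 ± 2848 CPM in the highest 27 and 4618 ± 3404 CPM in the lowest 27, and 3 of 8 markers were called, all falling: Zfhx3 (-0.27, adjusted p = 0.00199), Six3 (-0.31, 0.0144) and Rorb (-0.25, 0.0119). The part of these cells in the slopes of the 5 genes was not tested beyond a fit with marker sums. With the pan-neuronal and astrocyte sums as covariates the Slc6a11 slope was 0.08 (SE 0.049, adjusted p = 0.677). Slc6a11 over the astrocyte sum had an ML slope of 0.16 (SE 0.092, permutation adjusted p = 0.242), of 0.08 (0.196) without the 5 shallow libraries and of 0.05 (0.540) without section 4, which holds the library with no Slc6a11 count.

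**Figure D4:**
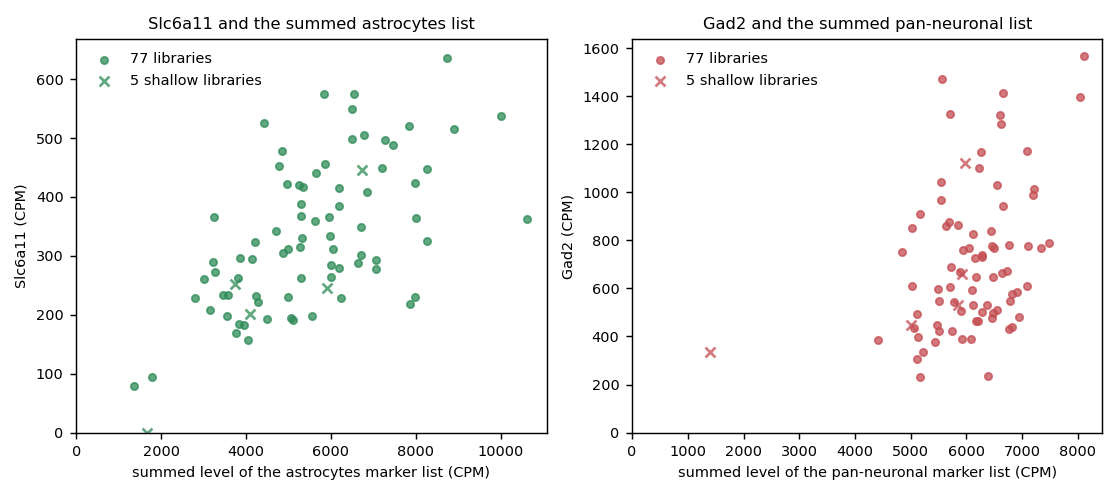
Left, Slc6a11 CPM (y axis) against the summed CPM of 12 astrocyte markers (x axis); right, Gad2 CPM against the summed CPM of 11 pan-neuronal markers; each point is a hexagon and crosses mark the 5 shallow libraries. Slc6a11 rises with the astrocyte sum (r = 0.704 over the 77 deeper libraries, section means removed), while Gad2 spreads widely at a given pan-neuronal sum (r = 0.397).

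The Gad2 to Gad1 ratio rose with the ML coordinate (0.16, SE 0.057, permutation p = 0.00933, adjusted p = 0.0327). Gad2 was above Gad1 in RPKM in 15 of the highest 27 hexagons and in 4 of the lowest 27. The call was lost without section 1 (adjusted p = 0.0541), section 2 (0.0875), section 3 (0.0816), section 6 (0.138) or section 7 (0.157). Over the pan-neuronal sum neither gene had a called ML slope. It was 0.07 for Gad2 (SE 0.059, permutation adjusted p = 0.358) and -0.09 for Gad1 (SE 0.041, 0.0966). Of the 11 pan-neuronal markers, 8 had positive ML slopes with edgeR and 3 negative ones, with a median of 0.101 and 0 called.

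A joint test of both coordinates, their squares and their product, which can catch a peak within a section, called 0 of the 5 genes with edgeR (3 at an unadjusted p under 0.05), against 232 of 11469 genes or 2.02%. Of all genes, 10.6% had an unadjusted p under 0.05 in it. The adjusted p was 0.109 for Gad2, 0.181 for Gad1 and 0.249 for Slc6a11. With no filter on low counts Gad2 (0.0282) and Gad1 (0.0480) passed, where 3538 of 21396 genes or 16.5% did, and without section 8 Gad2 passed (0.0482). Slc32a1 and Abat had adjusted p of 0.978 and 0.984.

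Correlations between the 5 genes across hexagons depended on the 5 shallow libraries. With section means removed, over the 77 libraries that were not shallow, Pearson's r of log2(CPM + 1) was 0.295 between Gad1 and Gad2 and 0.199 between Gad2 and Slc32a1. It was 0.038 between Gad1 and Slc32a1 and -0.163 between Gad2 and Abat. Over all 82 hexagons Slc32a1 and Slc6a11 had an r of 0.602 (-0.062 without the shallow libraries), Slc6a11 and Abat 0.566 (0.150) and Slc32a1 and Abat 0.411 (0.008). Among the 8145 other genes ranked, Gad2 stood at place 254 in likeness to Gad1, while Slc32a1 stood at place 4201. These correlations are descriptions over hexagons that may share animals, library preparation and depth.

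**Figure D5:**
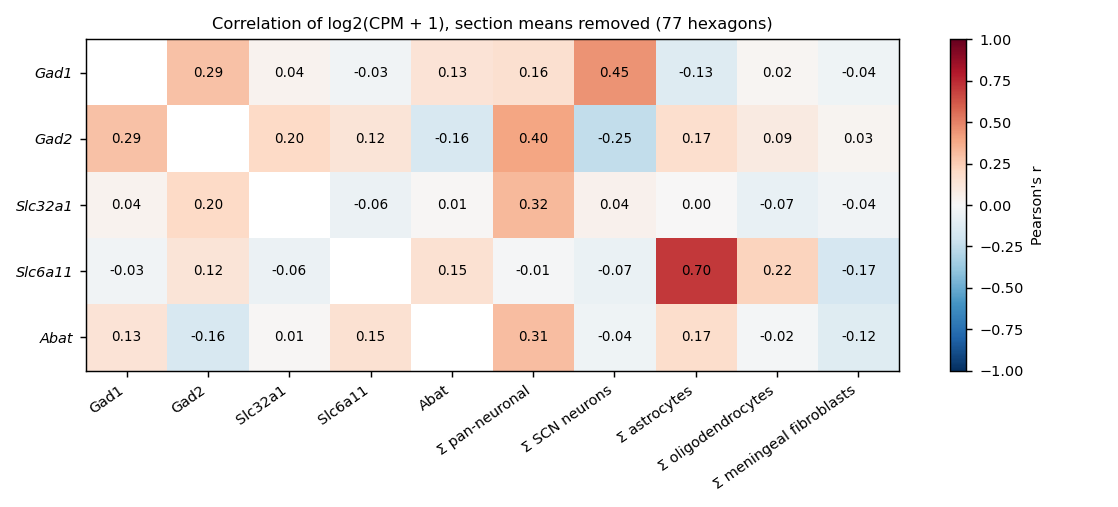
Pearson's r of log2(CPM + 1) with section means removed, over 77 hexagons, between the 5 genes (rows) and the same genes and the summed CPM of marker lists (columns, Σ), from blue (-1) to red (1). The strongest cells are Slc6a11 with the astrocyte sum (0.704), Gad1 with the SCN neuron sum (0.446) and Gad2 with the pan-neuronal sum (0.397).

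The decarboxylase genes followed different markers. Gad1 had an r of 0.446 with the SCN neuron sum, in which Vip weighed most, and 0.163 with the pan-neuronal sum. Gad2 had -0.247 and 0.397. Slc32a1 and Abat had 0.324 and 0.312 with the pan-neuronal sum, and Slc32a1 had 0.732 with the shallow libraries included. Abat also had 0.330 with the log2 library total, against -0.069 to 0.132 for the other 4 genes; over all 82 hexagons the 5 genes had 0.161 to 0.537.

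The genes most like Gad2 were Eno1 (r = 0.729), a glycolytic enzyme, Tspan7 (0.691), a tetraspanin, Ndrg4 (0.690), Rab3a (0.685), a synaptic vesicle GTPase, and Scn2b (0.678), a sodium channel subunit. Those most like Slc6a11 were Pla2g7 (0.707), Cst3 (0.702), Aldoc (0.684), Gja1 (0.661) and Mt2 (0.653), of which Aldoc and Gja1 are on the astrocyte list. For Gad1 they were Maged1 (0.545), Syt4 (0.476), Tceal9 (0.471), Map1b (0.451) and Zcchc18 (0.451). Slc32a1 was nearest to Mif (0.559), Rbm42 (0.545) and Polr2l (0.516), and Abat to Mrpl41 (0.515), Fem1c (0.497) and Immp1l (0.477). With the 5 shallow libraries included, 3 of the 5 genes stayed the nearest for Gad2, 2 for Gad1 and for Abat, 1 for Slc32a1 and 0 for Slc6a11.

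Of 23 other genes of GABA and glutamate handling, 22 were in the count table and 20 had enough counts to be tested. On the DV axis 0 of the 20 passed (edgeR, 4 at an unadjusted p under 0.05, beside 8.43% of all genes), and their median slope was 0.007. On the ML axis 2 passed, both falling, and 64 of all 11469 genes, or 0.558%, passed in that direction. Slc6a13, a GABA transporter of the meninges, had a count in 27 of 82 hexagons and a slope of -2.01 log2 per 100 units (SE 0.321, edgeR adjusted p = 0.000142). It had 1.11 ± 2.81 CPM in the 27 hexagons with the highest ML coordinates and 40.3 ± 93 CPM in the 27 with the lowest. The meningeal list, which includes Slc6a13, summed to 14.5 ± 17.2 CPM in the highest 27 and 97.1 ± 183 CPM in the lowest 27. Slc6a6, a taurine transporter, had a slope of -0.33 (SE 0.086, adjusted p = 0.0247).

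Those that passed between sections included the glial glutamate transporter genes Slc1a2 (edgeR adjusted p = 0.0313) and Slc1a3 (0.0291), and Slc6a13 (0.0315). The joint position test called Slc1a2 (0.0106) and Slc6a13 (0.000582). Along the AP axis, and for slopes that differ between sections, 0 of the 20 passed with edgeR. Aldh5a1, which completes GABA breakdown after Abat, had an ML slope of 0.21 (SE 0.079, adjusted p = 0.172).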

How the data were processed

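Counts per gene and RPKM values were taken as the authors deposited them. Per the submitters' processing notes, reads were demultiplexed with bcl2fastq 2 and mapped to GRCm38 with STAR; what counted the reads, and with which strand setting, is not given in the sources used here. RPKM as deposited equalled the counts divided by gene length and library total. Members, lists and tests were chosen with earlier results of these data known.

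Genes reaching 10 counts in at least 10 libraries entered the tests, made with edgeR 4.0.16 in R 4.3.3 (TMM scaling, robust quasi-likelihood F test), with section and both coordinates in the model and Benjamini-Hochberg adjustment over all genes tested (threshold 0.05). Slopes are log2 per 100 coordinate units. CPM are TMM-scaled. A gene was called where its adjusted p passed the threshold. Section 9, with 1 hexagon, was left out of tests between sections, and AP slopes used counts summed per section. The 14 ratio slopes, of log2(CPM + 1), were tested with 100000 permutations within sections, whose smallest possible p is 1e-05. DESeq2 1.42.0, RLE scaling, library size alone, no filter, leaving out the 5 shallow libraries or each section, library set and marker sums were the alternatives. The sections hold separate hexagons whose animals are not named, so the spread may be in part technical. The slope test and the permutation test were tested on simulated data.

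The 5 members, any pathway gene past a test with Slc6a13 and Aldh5a1, and the 5 genes with the highest r to each member (mean of 20 CPM or more) are named. The pathway gene Gad1os was not analysed here, and a ratio behind the 14 slopes and some pathway genes are not reported here.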

Additional observations from a re-analysis of the deposited data

Results flagged for a closer look

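In section 2, replicate 5 had 1142 CPM of Gad1 (331 counts), above the other 5 hexagons, of which the next had 895 CPM. The gap was 0.757 of the section's range. It was the one value marked out in 15 comparisons of a section's highest and lowest hexagon with the rest (5 genes in sections of 4 or 6 hexagons), and chance marks about 1 group in 20. No member's slope differed between sections past the adjusted threshold.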

How the results depend on the processing

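No paired analysis was possible because the numbers of the hexagons only name them within a section. Of the 5 genes, the number called along DV was 0, and 0 to 1 without each section. Along ML it was 0, 1 with no filter, 1 with DESeq2, and 0 to 1 without each section. In the joint position test it was 0, 2 with no filter, and 0 to 1 without each section. Between sections it was 1, 2 with RLE scaling, 2 with library size alone, 2 with no filter, 0 with library set as a factor (chosen after seeing the data), and 1 to 2 without each section. DV slopes that differ between sections were called for 0, and for 1 with no filter. Of the ratio slopes 4 were called, and 1 to 4 without each section. Within strata of section and library set (chosen after seeing the data) 5 passed, among them Slc32a1 over Gad1 (ML 0.32, adjusted permutation p = 0.0428) and Gad1 over the pan-neuronal sum (ML -0.13, 0.0449). AP slopes and ML slopes that differ between sections stayed at 0 in every alternative run. No called slope changed sign, and 40 of 397 alternative slopes differed in sign where neither was called.

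Over all genes, with no filter 799 (DV), 912 (ML), 3538 (joint), 4634 (sections), 356 and 461 (slopes by section) and 106 (AP) passed. Library set as a factor left 13 on ML, 137 in the joint test and 0 between sections; marker sums left 79 on ML. DESeq2 called 162 (DV) and 386 (ML), and single hexagons called 378 on AP. Without each section the calls ran between 44 and 139 (DV), 31 and 190 (ML), 83 and 267 (joint), 282 and 501 (sections) and 1 and 85 (AP). The cause of these moves was not tested, except that no filter tests more genes. Depth limits Slc32a1 most, with a median of 22.5 counts.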
